A study of Homo sapiens with 6 samples.

Results

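The cadherins and protocadherins were taken as the protein-coding genes of the deposited table whose symbols are CDH with a number, PCDH with a number, or PCDHA, PCDHB and PCDHG with their subtype. This rule, which uses symbols and no measured values, found 89 genes among 19799 protein-coding genes and 58174 genes in all. They comprise 5 type I classical cadherins, 13 type II classical cadherins, 5 other cadherins, 13 non-clustered protocadherins and the clustered protocadherins, with 15 alpha, 16 beta and 22 gamma genes. The polyA mRNA was sequenced from KNS42, an established line from a pediatric glioblastoma (GBM), harvested 72 h after transfection with a control siRNA (siC, n = 3) or with a pool of siRNAs against MSI1 (siMSI1, n = 3). MSI1 encodes Musashi1, an RNA-binding protein of neural stem and progenitor cells. All libraries share the line, the culture in serum-containing medium and the time point, so the comparison rests on 1 line, 1 siRNA pool and 1 time, and none of the 6 libraries restored MSI1. The labels do not say whether replicates were separate cultures, and p-values therefore measure the spread between these libraries, which may be technical. In such bulk RNA, fewer cells that express a gene and less of its RNA per cell cannot be told apart.

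Classical cadherins bind the same cadherin on a neighbouring cell, and their tails hold beta-catenin and p120-catenin, with alpha-catenin linking the complex to actin. N-cadherin, encoded by *CDH2*, is the main classical cadherin of neural progenitors, whereas *CDH6*, a type II cadherin also called K-cadherin, is known from the fetal kidney and from neural crest and brain development. Clustered protocadherins lie in tandem on chromosome 5. Each alpha and gamma gene has its own promoter and first exon, which is spliced to constant exons shared by its cluster, whereas beta genes end with their single coding exon. Cells of the nervous system express combinations of these promoters, and CTCF and cohesin are known to take part in that choice.

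The libraries held 14448513 to 18024080 reads on genes in siC and 13087025 to 14700593 in siMSI1. MSI1 itself was at 63.7, 61.9 and 66.9 FPKM (fragments per length of gene and per depth of library) in siC, against 12.1, 12.3 and 11.2 FPKM in siMSI1, 18.5% of the siC mean (log2 fold change −2.43, adjusted p = 8.7e-06, limma). All 5 neural and glial progenitor markers looked at (NES, SOX2, VIM, PTPRZ1 and FABP7) were high enough to test, with a summed level of 1407 to 1469 FPKM in siC and 1168 to 1265 FPKM in siMSI1. They did not move together. FABP7 fell (log2 fold change −1.12, adjusted p = 0.00027, limma), and PTPRZ1 was higher without passing 0.01 (0.55, adjusted p = 0.0104, limma). The log2 fold changes of NES, SOX2 and VIM were −0.26 to −0.16, and none of these passed. Of 4 astrocyte markers, GFAP and AQP4 were expressed and S100B and ALDH1L1 had no read in any library. GFAP and AQP4 rose (log2 fold changes 1.46 and 0.80, adjusted p = 0.00090 and 0.0013, limma). The astrocyte sum moved with the knockdown, from 24.5 to 28.0 FPKM in siC to 42.8 to 50.3 FPKM in siMSI1, and its part in the results below was not tested. The sum of 4 neuron markers was 20.5 to 21.2 FPKM in siC and 14.3 to 15.4 FPKM in siMSI1, that of 4 fibroblast markers 22.94 to 25.01 and 25.89 to 27.63 FPKM, and that of 4 immune markers at most 0.283 FPKM, and their part was not tested either. Of the neuron markers, only SYP and MAP2 were high enough to test. SYP fell (log2 fold change −0.53, adjusted p = 0.0043, limma), and MAP2 was lower without passing 0.01 (−0.43, adjusted p = 0.025, limma). Of the fibroblast markers, LUM and DCN were near 0 (means of 0.111 and 0.0416 FPKM). PDGFRA and COL1A1 had log2 fold changes of 0.20 and −0.33 (adjusted p = 0.062 and 0.39, limma). None of the 4 oligodendrocyte markers was above 3 reads in any library. The sum of 4 epithelial markers was 22.5 to 26.2 FPKM in siC and 19.0 to 23.7 FPKM in siMSI1. Of these, only KRT18 and KRT8 were high enough to test, and neither passed an adjusted p of 0.01 (0.081 and 0.91, limma).

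To show what the promoters of the clustered genes have in common, 30-base windows from RefSeq promoters (GRCh38.p14, 250 bases before to 50 after the start site) are given first. Clustered protocadherin promoters are known for a conserved element with a CGCT core. For each cluster, the 8-letter word found in the most promoters of that cluster (read along the gene) was taken, counted on both strands, and capitals mark it. The alpha and gamma words hold CGCT. The beta word ends before the T of this core, which follows in lower case in the beta windows below. All windows are on the plus strand of chromosome 5. The windows of the 4 highest beta genes, at chr5:141135179-141135208, chr5:141192299-141192328, chr5:141094544-141094573 and chr5:141223263-141223292 in this order, read:
PCDHB5: ttaggacgcctGGTGGCGCtgcaggctaag
PCDHB10: ggaggccacacGGTGGCGCtgcaggctaaa
PCDHB2: aagagacgcggGGTGGCGCtgcagccttag
PCDHB14: tggagacacatGGTGGCGCtacaggataag
The windows of the 3 tested gamma genes, at chr5:141475883-141475912, chr5:141402717-141402746 and chr5:141330406-141330435, and of the alpha gene with the highest level, at chr5:140786087-140786116, read:
PCDHGC3: ggactctgtgtGCCGCTGTcggccaatgaa
PCDHGA9: ggactctgagcGCCGCTGTtgatcaactct
PCDHGA1: ggactgtgggcGCCGCTGTtcactaatctg
PCDHA1: ttggccacatgATGTCGCTgtacaccacaa
The beta word GGTGGCGC was in 13 of the 14 beta promoters listed by RefSeq, against 2.23% of all 35116 promoters. It was in 8 of 8 promoters of beta genes with enough expression to test and in 5 of 6 of the others, and the promoter without it was that of *PCDHB1*, which had no read. The gamma word GCCGCTGT was in 11 of 20 gamma promoters (1.63% of all promoters), and in 3 of 3 of the tested genes and 8 of 17 of the others. The alpha word ATGTCGCT was in 9 of 13 alpha promoters (0.234% of all promoters), although no alpha gene was high enough to test. These words were chosen for their frequency in the same promoters, so their presence is a description of letters and not of a bound site.

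MSI1 is known to bind the core UAG in RNA. To show this motif in the mRNAs that were past the threshold below, the 30-base window of the 3′UTR with the most UAG is given for each, with UAG in capitals, from the GENCODE release 44 transcripts (GRCh38). The windows lie at chr5:31323973-31324002 (plus strand), chr5:141098406-141098435 (plus), chr4:137520737-137520766 (minus), chr5:141194982-141195011 (plus) and chr5:141227451-141227480 (plus):
CDH6: uaacucaUAGuuuguuauauccUAGacUAG
PCDHB2: uuUAGgauucacuUAGaaacaagccuuUAG
PCDH18: acauguuuuuccUAGucgugUAGaaacUAG
PCDHB10: ugguguguuacaUAGccauguuucuauUAG
PCDHB14: aaagaaaguucuaUAGaagauuaUAGaUAG
The whole 3′UTRs held 13.9 (*CDH6*), 18.5 (*PCDHB2*) and 11.4 (*PCDH18*) UAG per kilobase for the mRNAs that were lower in siMSI1. For those that were higher, they held 10.1 (*PCDHB10*) and 18.3 (*PCDHB14*). The median over 11273 tested protein-coding genes was 11.2 per kilobase, and 40.8% of these genes held a window with 3 or more UAG. Whether MSI1 bound these sites was not tested.

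Of the 89 genes, 19 reached a mean of 0.5 FPKM over the 6 libraries and were tested, 37 were below this level but had more than 3 reads in some library, 24 had at most 3 reads in every library, and 9 had no read. The tested genes were 2 type I, 2 type II and 1 other cadherin, 3 non-clustered, 8 beta and 3 gamma protocadherins. Together the 89 genes took 0.155% to 0.174% of the reads in siC and 0.124% to 0.138% in siMSI1, with no overlap between the groups. That order rested on *CDH6*: the other 88 genes took 0.0593% to 0.0620% of the reads in siC, against 0.0647% to 0.0694% in siMSI1, again without overlap but with siMSI1 above. Per length, *CDH6* and *CDH2* stood far above the rest, with 68.6 and 57.1 FPKM as means over the 6 libraries. *PCDHB5* (13.1), *PCDHGC3* (12.0), *PCDHB10* (7.76), *PCDHB2* (4.62), *PCDHB14* (4.54) and *PCDH18* (3.79 FPKM) followed. The other tested genes had means of 0.555 to 3.17 FPKM. The plot of levels by library shows this order and, gene by gene, where the groups separated.

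**Figure D1:**
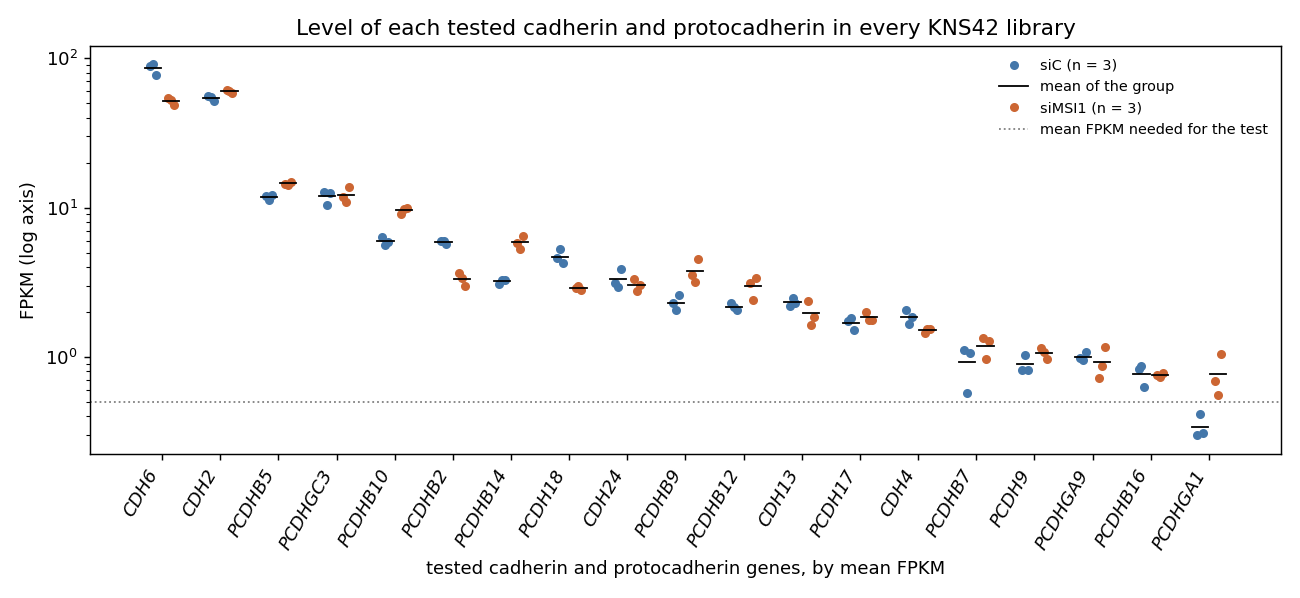
FPKM (log axis) of the 19 tested cadherin and protocadherin genes in each siC library (blue, n = 3) and siMSI1 library (orange, n = 3), ordered by mean FPKM, with black lines for group means and a dotted line at the 0.5 FPKM needed as a mean over all libraries. CDH6 and CDH2 lie between 48.6 and 90.6 FPKM in every library, and only CDH6, PCDHB2 and PCDH18 (lower) and PCDHB10 and PCDHB14 (higher) passed the test.

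Upon MSI1 knockdown, 5 of the 19 tested genes passed an adjusted p of 0.01 (26.3%). This compares with 11% of all 15069 tested genes and 13.1% of the 11365 protein-coding genes among them. *CDH6*, *PCDHB2* and *PCDH18* fell (5.83% of all tested genes did), and *PCDHB10* and *PCDHB14* rose (5.15% did). The test was limma on log2(FPKM + 0.1), adjusted by Benjamini-Hochberg over the whole set of tested genes, and fold changes are given on this scale, where changes of low genes come out too small. The median log2 fold change of the 19 genes was 0.12 (11 above 0, 8 below) and that of all tested genes was 1.5e-05. In 11 of the 19 genes the groups did not overlap (7 with siMSI1 above, 4 below), and the same held for 42.8% of all tested genes (21.4% above, 21.5% below). The 7, like the 11 above 0, include *PCDHGA1*, which reached the level needed for the test only through siMSI1 (means of 0.342 FPKM in siC and 0.768 in siMSI1). Its place in these counts was therefore favoured by the filter. Among the tested protein-coding genes it held for 5500 of 11365 (2684 above, 2816 below). The 5 calls were spread over type II cadherins (1 of 2 tested), non-clustered protocadherins (1 of 3) and beta protocadherins (3 of 8).

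**Figure D2:**
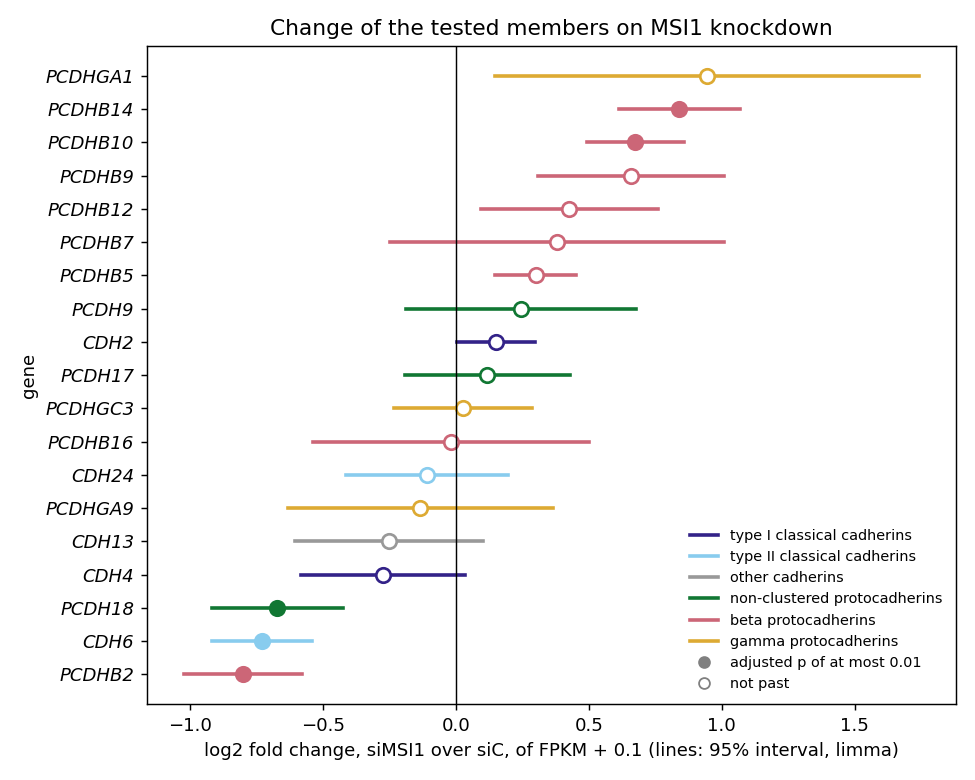
Log2 fold change of siMSI1 over siC (FPKM + 0.1, x axis) of the 19 tested genes, with 95% intervals from limma as lines and colours for the classes. Filled points passed an adjusted p of 0.01: PCDHB2 (−0.80), CDH6 (−0.73) and PCDH18 (−0.67) on the left and PCDHB10 (0.67) and PCDHB14 (0.84) on the right. PCDHGA1 has the highest point (0.94) and an open one, with an adjusted p of 0.081 (limma) and an interval of 0.15 to 1.74.

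*CDH6* (ENSG00000113361, chr5:31193686-31329146, plus strand, GRCh38) measured 89.0, 90.6 and 77.5 FPKM in siC, against 53.8, 52.1 and 48.6 FPKM in siMSI1. Each siMSI1 library was below each siC library by a wide margin, with 13806 to 20297 reads behind the siC values and 8458 to 9818 behind those of siMSI1. The mean fell from 85.7 ± 7.14 to 51.5 ± 2.67 FPKM (SD, n = 3 each), to 60.1% of siC (log2 fold change −0.73, standard error 0.081, adjusted p = 0.00098, limma). *CDH2* (ENSG00000170558, chr18:27932879-28177946, minus strand), N-cadherin, measured 55.9, 55.2 and 51.5 FPKM in siC, against 61.6, 60.4 and 58.3 FPKM in siMSI1. Its groups did not overlap, but the difference was small (log2 fold change 0.15, 95% interval 0.0051 to 0.30) and did not pass the threshold (adjusted p = 0.12, limma). Under no alternative fit did *CDH2* pass it. *CDH6* held 56.6% to 59.2% of the FPKM summed over all CDH genes in siC and 42.7% to 43.9% in siMSI1, while *CDH2* held 36.0% to 37.6% and 50.2% to 51.2%. With the deposited lengths, *CDH6* was the highest cadherin per length in every siC library and *CDH2* in every siMSI1 library. The ratio of *CDH2* to *CDH6*, a pair chosen after its values were seen, was 0.628, 0.609 and 0.664 in siC and 1.145, 1.159 and 1.201 in siMSI1. This order depends on gene length, for which the deposited table gives 4950 bases for *CDH2*, whereas its exons cover 8583 bases in the newer GENCODE release. With the exon bases of that release as lengths, the ratio was 0.364, 0.353 and 0.385 in siC and 0.664, 0.672 and 0.696 in siMSI1, so that *CDH6* was above *CDH2* in every library of both groups, while the ratio was still higher in siMSI1.

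The other tested cadherins were at 1.45 to 3.86 FPKM in each library, and none of the 3 passed the threshold here, under voom or under any other alternative. *CDH4*, R-cadherin, a type I cadherin of the retina and brain, measured 2.06, 1.67 and 1.84 FPKM in siC, against 1.45, 1.55 and 1.54 FPKM in siMSI1, where the groups did not overlap (log2 fold change −0.28, adjusted p = 0.17, limma). *CDH24*, a type II cadherin, had a log2 fold change of −0.11 (95% interval −0.42 to 0.20, adjusted p = 0.59, limma). *CDH13*, T-cadherin, which has no cytoplasmic tail and is held by a lipid anchor, had a log2 fold change of −0.25 (95% interval −0.61 to 0.10, adjusted p = 0.27, limma). *CDH1*, the epithelial E-cadherin, had 1 to 4 reads in a siC library and 1 to 3 in a siMSI1 library and was not tested. For a gene of 4 kilobases, 3 reads correspond to 0.0415 to 0.0572 FPKM in these libraries, and such floors cover counting error only.

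Among non-clustered protocadherins, *PCDH18* (ENSG00000189184, chr4:137518918-137532494, minus strand), a protocadherin of the delta-2 group, was the highest. It measured 4.57, 5.25 and 4.24 FPKM in siC, against 2.90, 2.99 and 2.79 FPKM in siMSI1. The groups lay clearly apart, and the mean fell from 4.69 ± 0.514 to 2.89 ± 0.0992 FPKM (SD, n = 3 each), to 61.7% of siC (log2 fold change −0.67, standard error 0.11, adjusted p = 0.0039, limma). This call was lost without siC replicate 1 (adjusted p = 0.020, limma), without siC replicate 2, siMSI1 replicate 1 or siMSI1 replicate 2, and with no filter on low genes, while the log2 fold change stayed between −0.74 and −0.54. *PCDH17*, another delta-2 protocadherin, had a log2 fold change of 0.12 (95% interval −0.19 to 0.43, adjusted p = 0.57, limma). *PCDH9*, of the delta-1 group, had a log2 fold change of 0.24 (95% interval −0.19 to 0.68, adjusted p = 0.38, limma). The other 10 genes of this class stayed below the level needed for the test. The highest of them was *PCDH20*, with a mean of 0.347 FPKM. In the newer GENCODE release, 91.3% of its exon bases also belong to another gene entry on the same strand. Its level can therefore be too low, which was not tested.

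The beta protocadherins were the class with the most tested genes, 8 of 16, with reads for 15, all in chr5:141051374-141249365. 3 of the 8 passed the threshold, and they went in opposite directions: *PCDHB2* fell and *PCDHB10* and *PCDHB14* rose. *PCDHB2* (ENSG00000112852, chr5:141094606-141098703, plus strand) measured 5.97, 5.96 and 5.74 FPKM in siC, against 3.634, 3.402 and 3.004 FPKM in siMSI1. All siMSI1 values lay below all siC values, with means of 5.89 ± 0.128 and 3.35 ± 0.318 FPKM (SD, n = 3 each), 56.8% of siC (log2 fold change −0.80, standard error 0.096, adjusted p = 0.0013, limma). Without siC replicate 1, its adjusted p was 0.0101 (limma), just above the threshold. Of its 4098 exon bases, 1797 overlap *PCDHB1-AS1* on the opposite strand. The libraries were strand-specific, but whether the counting used the strand is not given in the sources used here.

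*PCDHB10* (ENSG00000120324, chr5:141192353-141195647, plus strand) measured 6.31, 5.65 and 5.92 FPKM in siC, against 9.03, 9.81 and 9.86 FPKM in siMSI1. The groups lay well apart, with means of 5.96 ± 0.334 and 9.57 ± 0.465 FPKM (SD, n = 3 each), 161% of siC (log2 fold change 0.67, standard error 0.079, adjusted p = 0.0012, limma). *PCDHB14* (ENSG00000120327, chr5:141223343-141227759, plus strand) measured 3.08, 3.29 and 3.28 FPKM in siC, against 5.83, 5.31 and 6.42 FPKM in siMSI1. It showed the largest fold change among the called members, with means of 3.22 ± 0.116 and 5.85 ± 0.555 FPKM (SD, n = 3 each), 182% of siC (log2 fold change 0.84, standard error 0.098, adjusted p = 0.0012, limma). *PCDHB2* and *PCDHB14* thus changed places: the ratio of *PCDHB14* to *PCDHB2*, a pair chosen after its values were seen, was 0.516, 0.551 and 0.571 in siC and 1.60, 1.56 and 2.14 in siMSI1. *PCDHB5* (ENSG00000113209, chr5:141135206-141138615, plus strand), the highest of the cluster, measured 12.0, 11.2 and 12.1 FPKM in siC, against 14.5, 14.1 and 14.9 FPKM in siMSI1. Its groups did not overlap, but its log2 fold change of 0.30 (standard error 0.066) narrowly missed the threshold (adjusted p = 0.015, limma). The 4 other tested beta genes had log2 fold changes of −0.02 to 0.66 and adjusted p-values of 0.018 to 0.96 (limma), and 2 of them had groups that did not overlap, both with siMSI1 above.

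Summed over the cluster, beta protocadherins gave 35.4, 33.4 and 34.6 FPKM in siC and 43.3, 41.3 and 45.3 FPKM in siMSI1. The sums did not overlap and that of siMSI1 was 126% of siC (log2 ratio 0.33), which is a description with no test. Without *PCDHB2* the log2 ratio of the sums was 0.49, without *PCDHB5* 0.35 and without *PCDHB10* 0.24, so the direction of the sum did not rest on 1 of these genes. Within the cluster, *PCDHB5* held 33.5% to 35.0% of the FPKM in siC and 32.9% to 34.2% in siMSI1, with overlap. The share of *PCDHB2* went from 16.6% to 17.8% in siC to 6.63% to 8.38% in siMSI1, that of *PCDHB10* from 16.9% to 17.8% to 20.8% to 23.7%, and that of *PCDHB14* from 8.71% to 9.83% to 12.8% to 14.2%. Stretches of 150 bases (the read length) that also occur in another gene made up 17.9% of *PCDHB10*, 7.06% of *PCDHB2*, 3.84% of *PCDHB14* and 0.521% of *PCDHB5*. *PCDHB2*, *PCDHB10* and *PCDHB14* share such stretches with one another, so a part of their reads is uncertain in its source.

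**Figure D3:**
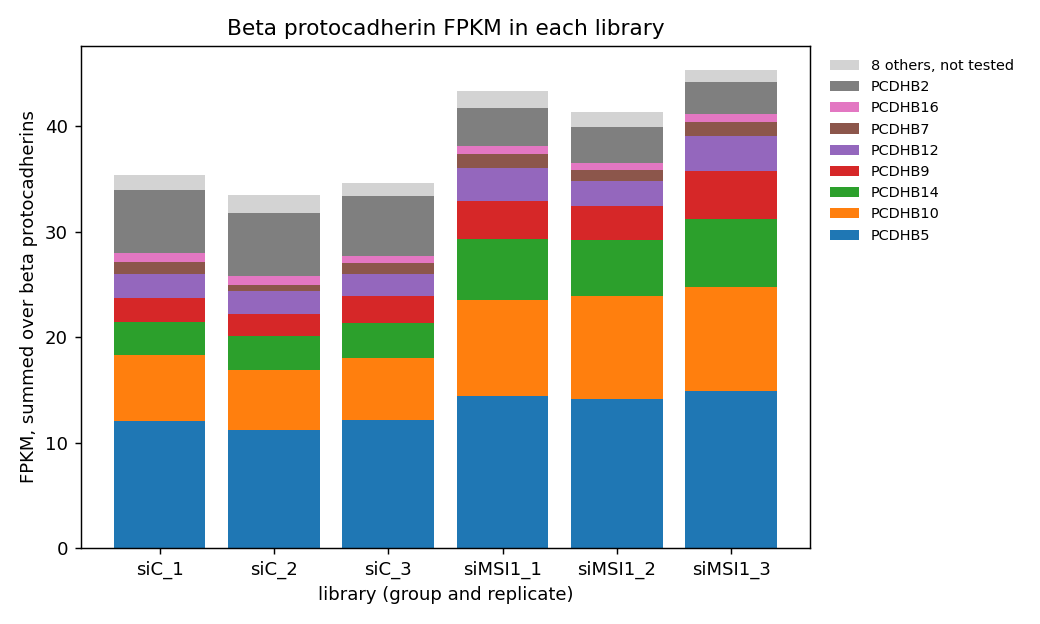
FPKM summed over the beta protocadherins in each library (bars from 0), split by gene. The siC bars reach 33.4 to 35.4 FPKM and the siMSI1 bars 41.3 to 45.3 FPKM, with a thinner PCDHB2 band and thicker PCDHB10 and PCDHB14 bands in siMSI1.

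The gamma cluster (chr5:141330514-141512977) was carried by 1 gene. *PCDHGC3* (ENSG00000240184, chr5:141475947-141512977, plus strand), a C-type gamma protocadherin that many cell types express, measured 12.7, 10.4 and 12.5 FPKM in siC, against 11.73, 10.95 and 13.72 FPKM in siMSI1. The groups overlapped (log2 fold change 0.03, 95% interval −0.23 to 0.29, adjusted p = 0.89, limma), and *PCDHGC3* held 77.9% to 83.5% of the gamma FPKM in siC and 78.5% to 79.9% in siMSI1. *PCDHGA9* was next, with 0.984, 0.954 and 1.08 FPKM in siC, against 0.729, 0.867 and 1.17 FPKM in siMSI1, with overlap (log2 fold change −0.14, adjusted p = 0.69, limma). *PCDHGA1*, named after its values were seen, reached the level needed for the test only through siMSI1. It was at 0.299, 0.416 and 0.311 FPKM in siC (28 to 47 reads) and at 0.694, 0.561 and 1.05 FPKM in siMSI1 (46 to 94 reads), without overlap, and did not pass the threshold (log2 fold change 0.94, adjusted p = 0.081, limma). With limma's voom on the reads it did pass (adjusted p = 0.0045, and 0.00015 with the replicate block). The gamma sum was 13.4 to 15.7 FPKM in siC and 14.0 to 17.3 FPKM in siMSI1. The other 19 gamma genes had at most 42 reads in any library.

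Gamma genes are listed with the constant exons as part of their length, and these 2177 bases are the same for all 22 genes. That makes up 40.1% of the exon bases of *PCDHGC3*. Since 3 gamma genes had at most 3 reads in every library, beside 780 to 1070 for *PCDHGC3*, reads in the constant exons were not credited to every gene, and the FPKM of gamma and alpha genes can be too low against beta genes. In the alpha cluster (chr5:140786136-141012347), the 15 genes together had 9 to 15 reads in a siC library and 7 to 9 in a siMSI1 library, and no gene had more than 5 reads, so a difference was not detectable at this depth.

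**Figure D4:**
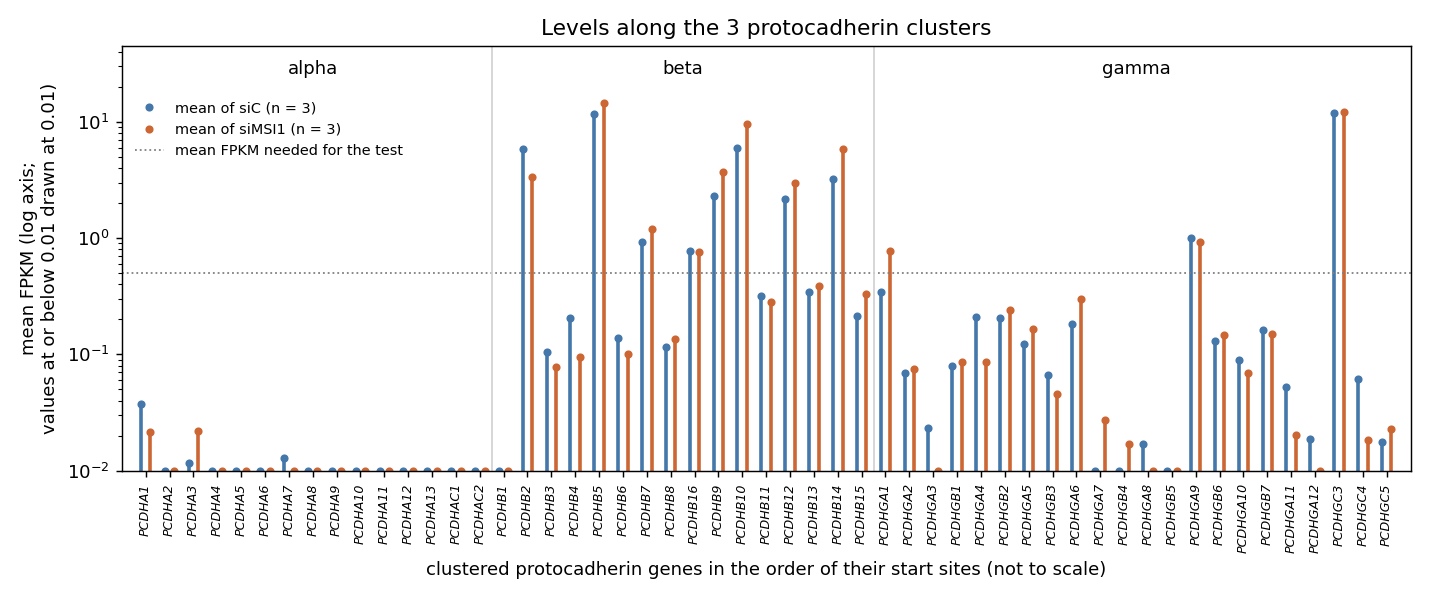
Mean FPKM (log axis, values at or below 0.01 drawn at 0.01) of the clustered protocadherins in siC (blue) and siMSI1 (orange), in the order of their start sites along the alpha, beta and gamma clusters, with a dotted line at 0.5 FPKM. Expression is near 0 over the alpha genes, rises above the line for 8 beta genes spread over the cluster and is concentrated in PCDHGC3 near the end of the gamma cluster.

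Of the 70 genes that were not tested, 18 had more than 10 reads in at least 1 library. In the beta cluster these were *PCDHB13* (20 to 36 reads in siC, 23 to 30 in siMSI1), *PCDHB11* (16 to 25, 13 to 23), *PCDHB15* (10 to 17, 17 to 22), *PCDHB4* (8 to 22, 3 to 7) and *PCDHB6* (4 to 11, 3 to 7). In the gamma cluster they were *PCDHGA6* (16 to 26, 28 to 42), *PCDHGB2* (11 to 19, 14 to 18), *PCDHGB7* (10 to 17, 8 to 12), *PCDHGA4* (12 to 19, 3 to 9), *PCDHGA5* (8 to 15, 12 to 16), *PCDHGB6* (11 to 20, 12 to 17), *PCDHGB1* (3 to 12, 2 to 8), *PCDHGA10* (7 to 11, 3 to 10) and *PCDHGA2* (3 to 12, 0 to 12). Among non-clustered protocadherins they were *PCDH20* (16 to 35, 17 to 29), *PCDH10* (5 to 12, 6 to 7) and *PCDH7* (8 to 11, 4 to 6). In a fit without a filter on low genes, none of these 17 genes passed the threshold (adjusted p of 0.26 to 0.99, limma, with 0 genes at an unadjusted p under 0.05). With voom and no filter none passed either, with 3 genes at an unadjusted p under 0.05, and counts of this size cannot show small differences.

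The last of the 18 was *CDH5*, VE-cadherin, the classical cadherin of endothelial junctions, with 2, 3 and 0 reads in siC and 9, 11 and 22 reads in siMSI1. The groups did not overlap, and 5 reads in all siC libraries stood against 42 in siMSI1, a ratio of 9.44 after scaling for depth (95% exact counting interval 3.74 to 30.6, which covers counting error only). *CDH5* passed the mark of 10 reads only through siMSI1, and the interval was computed for this gene alone. The ratio, the interval and the fits below therefore describe these reads and are no support for a change. The level stayed low, at 0.102 to 0.257 FPKM in siMSI1. Without a filter on low genes its adjusted p was 0.10 (limma), whereas limma's voom on the reads without a filter, a fit added after the data were seen, gave an adjusted p of 0.00012, with 10.1% of 29846 genes called. Of 4 other endothelial markers, *PECAM1* had 1, 1 and 0 reads in siC and 8, 7 and 5 in siMSI1, *KDR* had at most 1 read in any library, *VWF* had 36, 37 and 20 in siC and 18, 14 and 21 in siMSI1, and *TEK* had 32, 40 and 26 in siC and 35, 22 and 38 in siMSI1. The groups overlapped for *VWF* and *TEK*, which made up most of the summed level of the 4, at 0.510 to 0.684 FPKM in siC and 0.521 to 0.736 FPKM in siMSI1. The part of other cells in the *CDH5* reads was not tested.

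To place these genes, lists of their partners, relatives and regulators were looked at in the same test. Of 63 listed genes, 44 were tested and 6 passed the threshold, 3 lower and 3 higher. These were 13.6%, against 11% of all tested genes and 13.1% of the tested protein-coding genes. Among catenins and junction partners, 3 of 13 passed. *CTNNA2*, the neural alpha-catenin, measured 24.1, 24.0 and 21.1 FPKM in siC, against 7.69, 8.72 and 6.91 FPKM in siMSI1. It fell to 33.7% of siC, with groups far apart (log2 fold change −1.56, standard error 0.10, adjusted p = 0.00023, limma). *CTNND2*, the neural delta-catenin of the p120 group, was at 1.05, 1.55 and 1.23 FPKM in siC and rose to 3.28, 3.03 and 3.31 FPKM in siMSI1 (log2 fold change 1.28, standard error 0.16, adjusted p = 0.0013, limma). *NECTIN1*, an immunoglobulin-type adhesion receptor of adherens junctions, was at 37.8, 37.6 and 41.1 FPKM in siC and rose to 66.2, 64.8 and 78.8 FPKM in siMSI1 (log2 fold change 0.84, standard error 0.089, adjusted p = 0.00082, limma).

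The catenins that most cell types use for cadherin junctions did not pass the threshold. *CTNNA1*, alpha-catenin, measured 67.6 to 68.4 FPKM in siC, against 60.2 to 64.0 FPKM in siMSI1 (log2 fold change −0.13, adjusted p = 0.14, limma). *CTNNB1*, beta-catenin, measured 86.0 to 94.5 FPKM in siC, against 89.5 to 104 FPKM in siMSI1, with overlap (log2 fold change 0.10, adjusted p = 0.37, limma). *CTNND1*, p120-catenin, measured 37.2 to 38.6 FPKM in siC, against 30.2 to 33.8 FPKM in siMSI1, without overlap (log2 fold change −0.25, adjusted p = 0.029, limma). Per length, *CTNNA1* was thus the main alpha-catenin in both groups, and the difference between it and *CTNNA2* was wider in siMSI1.

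None of the 5 tested genes for cadherin cleavage and its gamma-secretase partners passed the threshold, while 3 were at an unadjusted p under 0.05 (limma), as were 38.3% of all tested genes. With voom on the reads, 0 of the 5 passed, although 12 of all 44 list genes did (18.9% of all tested genes did). These included 5 of the 11 relatives with cadherin repeats (2 lower, 3 higher) and 3 of the 11 cluster factors (all lower). Among 11 tested relatives with cadherin repeats, *CELSR2*, a seven-pass cadherin of planar cell polarity, was at 6.30, 6.08 and 5.99 FPKM in siC and fell to 3.95, 4.14 and 4.76 FPKM in siMSI1 (log2 fold change −0.51, standard error 0.094, adjusted p = 0.0076, limma). Its call was lost without siC replicate 1 (adjusted p = 0.040, limma) and in 8 other alternatives. In 3 relatives siMSI1 was above siC without overlap, but none passed: *FAT4* (0.57, adjusted p = 0.0112, limma), *CLSTN3* (0.43, adjusted p = 0.0113, limma) and *DCHS2* (0.60, adjusted p = 0.0142, limma). In 3 it was below without overlap, *CELSR2* among them. Of 11 factors known for protocadherin cluster expression, *SMC1A*, a cohesin subunit, was at 29.2, 27.8 and 26.2 FPKM in siC and fell to 17.6, 17.0 and 17.2 FPKM in siMSI1 (log2 fold change −0.68, standard error 0.066, adjusted p = 0.00057, limma). The other 10, *CTCF* among them, did not pass. Log2 fold changes were below 0 for 9 of the 11, and for 7534 of all 15069 tested genes. The lowest of those not past were *SMCHD1* (−0.53, adjusted p = 0.028, limma) and *SMC3* (−0.46, adjusted p = 0.030, limma). Of 4 tested repressors of *CDH1*, *TWIST1* was at 11.6, 12.0 and 13.9 FPKM in siC and rose to 17.2 FPKM in each siMSI1 library (log2 fold change 0.46, standard error 0.083, adjusted p = 0.0065, limma), and this call was lost without siC replicate 1 (adjusted p = 0.034, limma) and in 6 other alternatives.

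**Figure D5:**
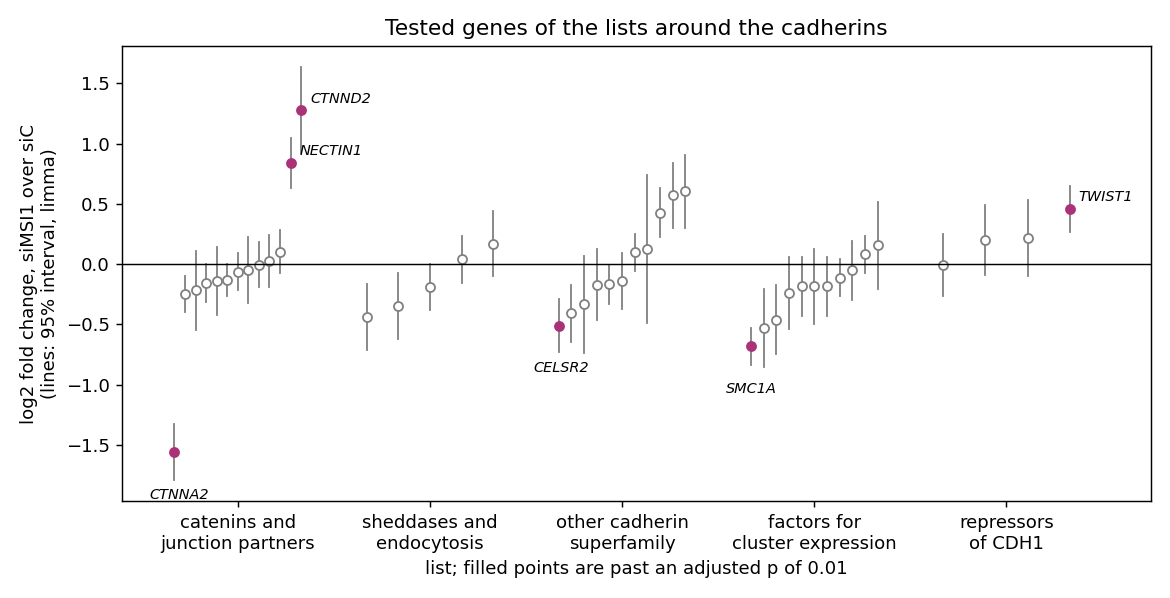
Log2 fold change of siMSI1 over siC (FPKM + 0.1, y axis) of the 44 tested genes in 5 lists, with 95% intervals from limma. Filled, named points passed an adjusted p of 0.01: CTNNA2 (−1.56), SMC1A (−0.68) and CELSR2 (−0.51) below 0 and TWIST1 (0.46), NECTIN1 (0.84) and CTNND2 (1.28) above, while the list of sheddases and endocytosis has open points only.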

How the data were processed

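KNS42 mRNA of siC (n = 3) and siMSI1 (n = 3) cells was sequenced with reads of 150 bases. Per the submitters' processing notes and the study's methods, the authors clipped reads (Cutadapt 1.14), aligned them to GRCh38 (HISAT2 2.1.0) and counted them per gene (featureCounts 1.5.3, Ensembl annotation). They deposited FPKM per gene and library, in which the library total had been scaled by a factor, with each gene's length in bases. The deposited log2 fold changes, p-values and false discovery rates are the authors' own comparison (edgeR 3.18.1) and were not used.

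limma 3.58.1 (R 4.3.3; lmFit, eBayes with trend and robust) was fitted to log2(FPKM + 0.1), with no block, for the 15069 genes that averaged 0.5 FPKM or more, with Benjamini-Hochberg adjustment and a threshold of 0.01. FPKM times length gave whole reads for 100% of values (tolerance 0.01), which voom used. On simulated data of this comparison, with 15098 genes tested, limma called 42.9% of genes changed 1.5-fold and 71.1% of those changed 2-fold. Voom called 78.6% and 85.6% of them. Of 14903 unchanged genes, limma called 5 and voom 3. The simulation gave all genes and libraries 1 common spread taken from siC, so these shares need not hold for the real libraries. No 2 libraries were duplicates.

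Genes, lists and tests were chosen with earlier results of these data known. Described in full are members past the threshold, the 8 highest and MSI1. Other tested cadherins and non-clustered protocadherins are given with fold change and adjusted p, clustered ones as counts and ranges with the called and the highest 2 of each cluster, list genes where called or a main catenin, and untested members above 10 reads by their reads. Gene positions and 3′UTRs came from GENCODE release 44 and promoters from RefSeq. All 89 members were in GENCODE and 70 had a RefSeq promoter. Python 3.11.15 was used for the rest.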

Additional observations from a re-analysis of the deposited data

How the results depend on the processing

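*CDH6*, *PCDHB10* and *PCDHB14* passed the threshold in all 17 alternatives and *PCDHB2* in 16. The count of 5 members was 7 at an adjusted p of 0.05, 7 with voom on the reads, and 3 to 5 when each library was left out (3 without siC replicate 1). The count of 6 list genes was 14 at an adjusted p of 0.05 and 12 with voom, and 4 to 5 without 1 library. The 1655 calls over all genes became 792 with no filter, 847 with eBayes without trend and robust, 3787 at an adjusted p of 0.05, 2855 with voom, and 517 to 1603 without 1 library. The log2 ratio of the beta sum was 0.485 without *PCDHB2* and 0.244 without *PCDHB10*, genes left out after the data were seen. The cause of these shifts was not tested.

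Deviations from the group means correlated at −0.066, 0.078 and 0.083 between same-numbered libraries and at −0.144 to 0.070 between the others. Values this close cannot show whether the replicate numbers pair the samples. With the replicate block, 7 members, 9 list genes and 2250 genes were called, and with voom and the replicate block 10, 18 and 5070. *PCDHB5* and *PCDHB9* passed under both.

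When 1 library was left out, log2 fold changes near 0 changed sign: they ranged from −0.187 to 0.00435 for *CDH24*, from −0.149 to 0.0631 (0.0284 and 0.00210 between) for *PCDHB16*, from −0.305 to 0.00512 for *PCDHGA9* and from −0.0637 (−0.0636 next) to 0.0974 for *PCDHGC3*. *CDH5* had a log2 fold change of 3.21 under voom without a filter, and fitted values of so few reads depend on the fit. Centring or quantile scaling moved the median of all genes by at most 0.0123. The filter of 0.5 FPKM left 70 members untested, 9 of them without a read.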
